A study of Homo sapiens with 6 samples.

Results

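The 41 genes described here act in homologous recombination, the Fanconi anaemia pathway and DNA mismatch repair, and include the kinases that signal DNA breaks. They were chosen by name, with earlier results of these arrays known. Each gene was read from its brightest probe set that the platform annotation assigns to that gene alone. Of the 41, 36 had such a probe set and 35 lay above the signal filter (mean log2 signal above 6.03, the median of all probe sets), out of 19775 genes with a probe set and 12204 above the filter. FANCB was the gene below the filter. BRCA2, RBBP8, FANCA and FANCD2 were not analysed here, and PMS2 was read only by probe sets that also name PMS2CL, which were not used. All 6 samples were SKOV3, an established ovarian cancer cell line that the labels call high grade serous, so every result rests on 1 line. The control group received a negative control precursor miRNA (3 arrays), the miR21 group a miR21 precursor at 5 nM (3 arrays), and RNA was taken after 24 h. The labels do not make clear whether the control precursor was also used at that dose. Both groups were transfected, and no untransfected cells are compared.

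Homologous recombination mends double-strand breaks by copying an intact sister chromatid. The MRE11-RAD50-NBN complex and the nuclease EXO1 cut the ends back, and BRCA1, PALB2 and BRCA2 prepare them for the invasion of the intact strand, in which proteins such as RAD54L act. The Fanconi pathway recognises crosslinks between the DNA strands and hands them to the same machinery, while mismatch repair corrects copying errors behind the replication fork. Many of these genes are transcribed mainly in S phase, and ovarian cancers that lack recombination are known for their sensitivity to platinum and PARP inhibitors. The precursor is processed to the mature strand below, given as RefSeq lists it on GRCh38.p14 at chr17:59841273-59841294, plus strand. Capitals mark the seed, bases 2 to 8, by which a microRNA pairs with its targets.
hsa-miR-21-5p: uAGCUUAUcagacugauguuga

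The cells matched an epithelial line in most of the markers checked. Of 10 epithelial ovarian markers, 8 lay above the filter, with summed signals of 73004 to 141189 on the control arrays and 73557 to 116373 on the miR21 arrays. WT1 (41.6 to 71.5) and the CA125 gene MUC16 (3.12 to 27.3), often used as serous markers, did not reach the filter. Of the fibroblast markers 2 of 7 reached it, of the leukocyte markers 1 of 4 measured, and of the endothelial markers 1 of 4. Their summed signals overlapped between the groups: 399 to 1083 and 360 to 1284 for fibroblasts, 116 to 459 and 36.3 to 371 for leukocytes, and 91.7 to 729 and 76.0 to 567 for endothelium, control first. Arrays of replicate number 1 stood apart, with median probe set signals of 125 and 117 against 55.2 to 61.9 on the other 4, so dim probe sets read higher there. Same-numbered arrays deviated together from their group means, and differences are therefore also given within each replicate number.

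Most of the repair genes had lower signals with miR21, and most of that difference came from replicate numbers 1 and 2. Of the 35 genes above the filter, 26 were lower and 9 higher, and the median log2 difference (miR21 minus control) was -0.43, against -0.01 over all genes tested. The median was -0.51 in number 1 and -0.79 in number 2, and 0.03 in number 3. In numbers 1 and 2 alike 25 of the 35 were lower (71.4%, against 38.4% of all genes). In number 3, 13 of those 25 were higher, as were 2131 of the 4683 such genes among all genes tested. None of the 35 passed limma at an adjusted p under 0.05, where it called 0% of all genes (0 of 12204), and none passed with the replicate number as a block, where it called 0.0328%. At an unadjusted p under 0.05, limma held 2 of the 35, EXO1 and POLQ, against 2.44% of all genes. With the block it held 13 lower and 3 higher members, against 10.3% and 9.82% of all genes. The members were chosen with results of these arrays known, so these counts are a description. A smaller share of cells in S phase and less RNA of these genes per cell cannot be told apart in such bulk RNA.

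The direction was shared by all 3 replicate numbers for fewer genes. Lower in all 3 were 12 members, or 34.3%, against 20.9% of all genes, and higher in all 3 were 4, or 11.4%, against 20.3%. On 3 genes (POLQ, FANCC and FAN1) every miR21 array lay below every control array, against 3.27% of all genes. With arrays centred on their median signal, 0 members did so, against 0.951% of all genes. RAD50 showed the opposite, with every miR21 array above every control array, against 3.38% of all genes. In number 3, 30 of 35 members differed by less than 0.5 log2 units, a share of 85.7% against 83.3% of all genes. In numbers 1 and 2, 10 and 14 members were over 1 log2 unit lower, against 5.88% and 7.51% of all genes, and 0 were over 1 unit higher. Across the 35 genes, Pearson's r between the differences was 0.872 for numbers 1 and 2, 0.232 for 1 and 3, and 0.324 for 2 and 3. Over all 12204 genes it was 0.696, 0.160 and 0.0774. Genes read from the same arrays are not independent points.

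**Figure D1:**
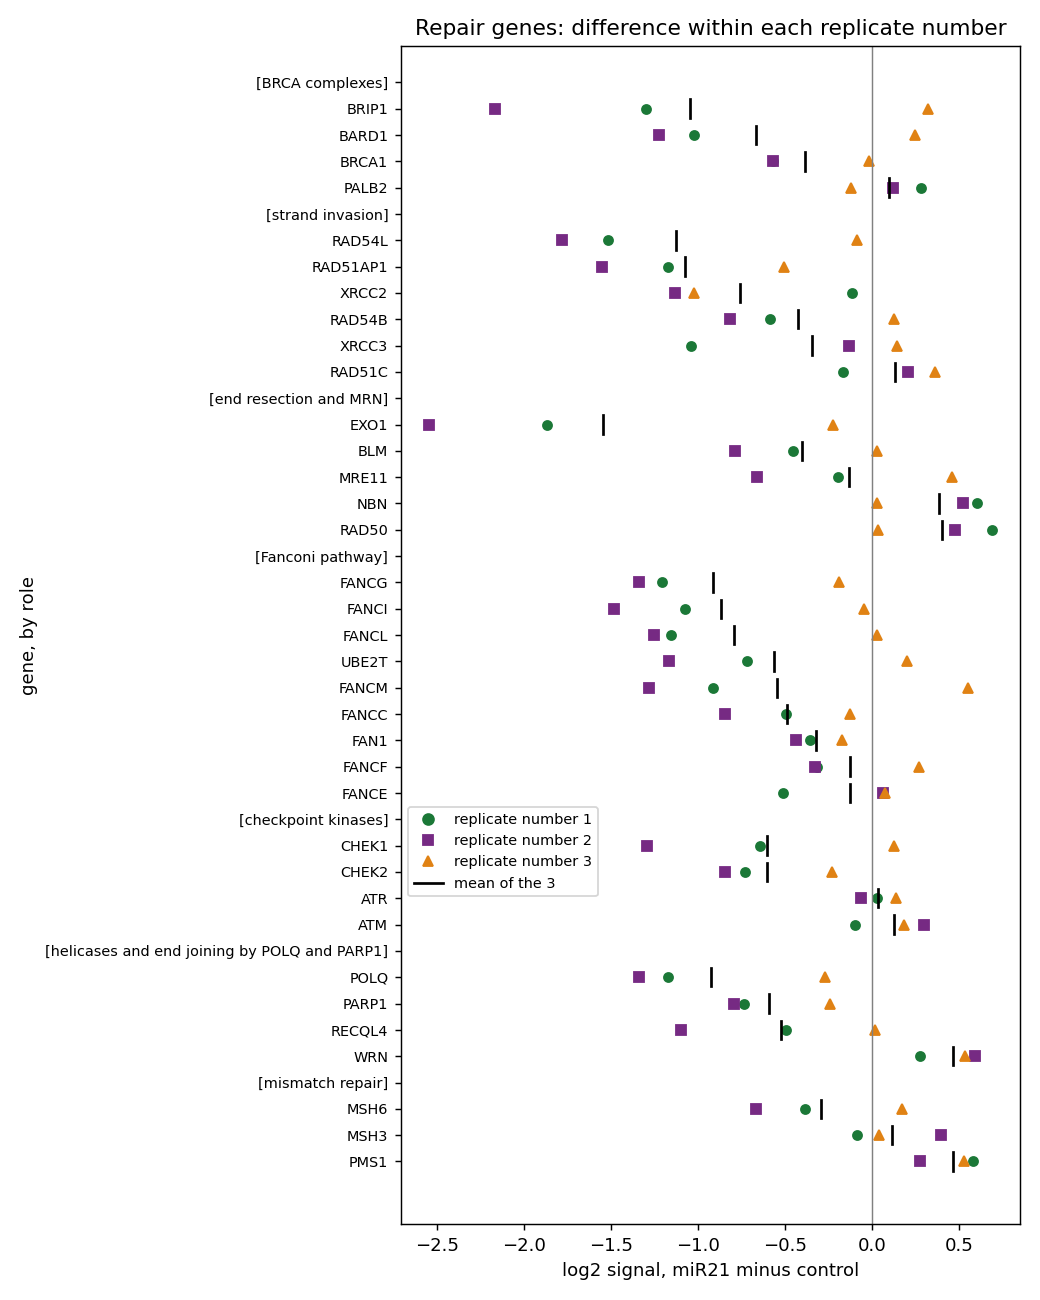
Log2 signal difference (miR21 minus control, x axis) of the 35 repair genes above the signal filter, grouped by role, with 1 marker for each replicate number and a bar at their mean. Circles and squares (numbers 1 and 2) lie left of 0 for 25 genes, while triangles (number 3) lie near 0 for most.

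Among the BRCA1 complex genes, BRCA1 itself differed about as much as the median member (-0.43) and its partners BARD1 and BRIP1 more. BRCA1, a ubiquitin ligase that promotes end resection and recombination, had control signals of 1886, 1301 and 1410 and miR21 signals of 1268, 875 and 1393, for numbers 1, 2 and 3. The control array of number 2 lay within the miR21 range, so the groups overlapped, and number 3 hardly differed. Its log2 difference was -0.39 (SE 0.32; with the block SE 0.17, unadjusted p = 0.0564, adjusted p = 0.261 in limma). A second BRCA1 probe set above the filter differed by -0.13 and was higher in number 2 (0.15), so the sign shared by all 3 numbers rests on the brightest. BARD1, the obligate partner of BRCA1, read 1336, 1246 and 1078 on the control arrays against 658, 533 and 1281 with miR21. Numbers 1 and 2 were lower by over 1 log2 unit and number 3 was higher by 0.25. BRIP1, the helicase that binds BRCA1, read 826, 490 and 461 on the control arrays against 335, 109 and 577. It showed the same split, with differences of -1.30, -2.17 and 0.32. PALB2, the bridge between BRCA1 and BRCA2, stayed between 857 and 1136 on all 6 arrays, with a log2 difference of 0.09.

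Genes that act in strand invasion held some of the lowest differences. RAD54L, a motor protein that drives strand invasion, read 753, 2284 and 2153 on the control arrays against 263, 665 and 2026 with miR21. It was 2.87-fold and 3.43-fold lower in numbers 1 and 2 and 1.06-fold lower in number 3, and the arrays of number 1 read lowest in both groups. Its mean log2 difference was -1.13 (SE 0.77; with the block SE 0.31, adjusted p = 0.143 in limma). RAD51AP1, which stimulates the joining of the strands, read 1248, 202 and 223 against 554, 68.7 and 157. It was lower in each number, by -1.17, -1.55 and -0.51, although the spread between numbers was larger than the difference between groups. XRCC2, a further recombination factor, read 281, 158 and 496 against 259, 71.9 and 244. It departed from the common pattern, since numbers 2 and 3 differed by -1.14 and -1.03 and number 1 by -0.11. The other three were RAD54B at -0.43, XRCC3 at -0.34 and RAD51C at 0.13. A second RAD51C probe set differed by -0.66, with -1.03 and -0.95 in numbers 1 and 2, so the direction of this gene depends on the probe set.

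End resection genes split between the nuclease EXO1 and the MRN complex. EXO1, which also removes the mismatched strand in mismatch repair, had the lowest mean difference of the members above the filter. Its control signals were 629, 1000.2 and 1037 and its miR21 signals 172, 171 and 887. In numbers 1 and 2 the miR21 arrays lay far below all controls, 3.65-fold and 5.84-fold below their own, and in number 3 the miR21 array lay 1.17-fold below. Its mean log2 difference was -1.55 (SE 0.66, unadjusted p = 0.0476, adjusted p = 0.9999; with the block SE 0.40, adjusted p = 0.138 in limma). BLM, the helicase that acts with resection nucleases, differed by -0.41. RAD50, the coiled-coil ATPase of MRN, read 1007, 1142 and 1232 on the control arrays against 1626, 1588 and 1260 with miR21. All 3 miR21 arrays were above all 3 controls, with differences of 0.69, 0.48 and 0.03 in numbers 1, 2 and 3. NBN, the subunit that recruits ATM to breaks, read 5246, 3691 and 4657 against 7971, 5306 and 4747. It was higher in each number (0.60, 0.52 and 0.03), and its 4 probe sets above the filter differed by 0.35 to 0.54, all in that direction. MRE11, the nuclease of the complex, read 298, 352 and 326 against 260, 222 and 448 and differed by -0.13, with no common sign. For RAD50 the other 2 probe sets above the filter differed by -0.15 and -0.03.

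**Figure D2:**
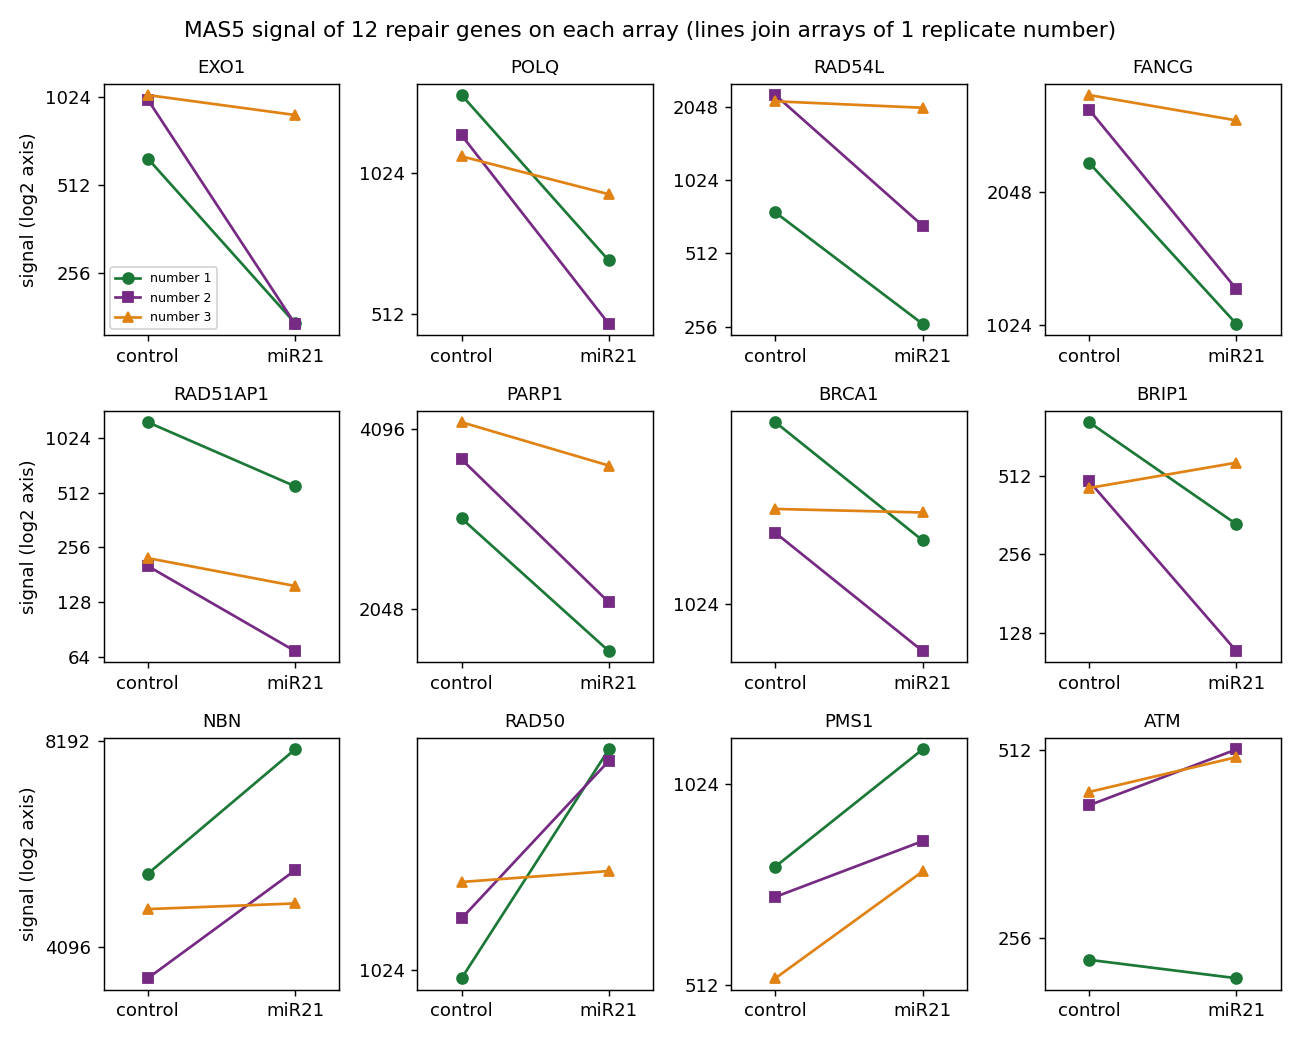
MAS5 signal (y axis, log2 scale, separate range in each panel) of 12 repair genes on the control and miR21 arrays, with a line joining the arrays of each replicate number. For EXO1, RAD54L and FANCG the lines of numbers 1 and 2 slope steeply downwards and that of number 3 little. For NBN and RAD50 the lines of numbers 1 and 2 slope upwards and that of number 3 is nearly flat. For PMS1 all lines slope upwards, by its brightest probe set.

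All 9 Fanconi pathway genes above the filter had negative mean differences, from -0.91 to -0.12, with a median of -0.55. FANCG, a subunit of the core ubiquitin ligase complex, read 2377, 3131 and 3378 on the control arrays against 1030.2, 1234 and 2962 with miR21. It was lower in each number, by -1.21, -1.34 and -0.19, and the miR21 array of number 3 lay within the control range. The fit gave -0.91 (SE 0.44; with the block SE 0.23, unadjusted p = 0.0049, adjusted p = 0.134 in limma). FANCI, which with FANCD2 forms the complex that the pathway ubiquitinates, read 2172, 3047 and 3317 against 1032, 1092 and 3212. Its differences were -1.07, -1.48 and -0.05, and its other 2 probe sets differed by -0.73 each. FANCL, the catalytic E3 subunit, read 3561, 1146 and 883 against 1598, 480 and 899, with number 1 highest in both groups. UBE2T, the E2 enzyme that works with FANCL, read 1434, 3824 and 3795 against 871, 1701 and 4361. Both enzymes were lower in numbers 1 and 2 and not in number 3, with means of -0.79 and -0.56.

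FANCC, another core subunit, read 903, 880 and 645 against 640, 489 and 592, and its groups did not overlap. Its difference was -0.49 (SE 0.30; with the block SE 0.20, adjusted p = 0.232 in limma). FAN1, a nuclease recruited to crosslinks, read 769, 698 and 671 against 601, 515 and 595, again without overlap, at -0.32. Dimmer FAN1 probe sets above the filter differed by -0.11 and 0.32, with overlapping groups, so its direction depends on the probe set. FANCM, the translocase that anchors the core complex, differed by -0.91, -1.29 and 0.55 in numbers 1, 2 and 3. FANCF and FANCE, core subunits, lay close to 0 at -0.13 and -0.12. FANCB was dim, with 62.8, 34.2 and 49.9 on the control arrays against 26.0, 20.8 and 18.2 with miR21. Its miR21 signals were lower without overlap, but 3 dimmer FANCB probe sets ranged from -2.30 to 1.52, and such signals are not reliable.

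Of the break-signalling kinases, ATM and ATR differed by 0.13 and 0.03 and the kinases they activate were lower in numbers 1 and 2. ATM, activated by double-strand breaks, read 237, 418 and 439 on the control arrays against 221, 513 and 498 with miR21, so the difference between numbers exceeded that between groups. Its other probe sets above the filter differed by 0.44, 0.57 and -0.01, not all of 1 sign. ATR, activated by stalled forks, stayed between 1229 and 1631, at a log2 difference of 0.03 (SE 0.28; with the block SE 0.14). A second ATR probe set above the filter differed by -0.03. CHEK2, the kinase that ATM activates, read 502, 371 and 735 against 303, 206 and 627. It was lower in each number, by -0.73, -0.85 and -0.23, without passing (adjusted p = 0.196 with the block in limma). CHEK1, the kinase that ATR activates, read 1446, 555 and 536 against 925, 226 and 585. Its mean was -0.60, with number 3 at 0.13, and its 4 probe sets differed by -0.76 to -0.35.

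POLQ and PARP1, which act in the alternative joining of broken ends, were lower in every replicate number. POLQ, the polymerase of that pathway, read 1503, 1233 and 1111 on the control arrays against 665, 487 and 922 with miR21, without overlap. Its difference was -0.93 (SE 0.33, unadjusted p = 0.0252, adjusted p = 0.9999; with the block SE 0.23, adjusted p = 0.13 in limma), and its second probe set was lower in each number too. PARP1, a sensor of DNA breaks and the target of PARP inhibitors, read 2908, 3650 and 4212 against 1745, 2106 and 3565. The miR21 arrays were 1.67-fold, 1.73-fold and 1.18-fold below the control arrays of their number, and the mean difference was -0.59 (SE 0.35; with the block SE 0.16, adjusted p = 0.141 in limma). RECQL4, a helicase of replication and repair, differed by -0.52, all of it in numbers 1 and 2. WRN, the Werner syndrome helicase, went the other way. Its signals were 543, 528 and 755 against 657, 796 and 1094, higher in each number, by 0.27, 0.59 and 0.53.

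Mismatch repair genes did not share a direction. MSH6, the partner that recognises single mismatches, read 3474, 3619 and 3306 on the control arrays against 2661, 2278 and 3725 with miR21. It was lower in numbers 1 and 2 and higher in number 3, with a mean of -0.29 (SE 0.29; with the block SE 0.18, adjusted p = 0.395 in limma). MSH3, the partner that recognises loops, read 516, 1108 and 1802 against 487, 1455 and 1849. Its signal depended on the replicate number far more than on the precursor, and its mean difference was 0.12. PMS1, a MutL family member, read 771, 695 and 525 against 1154, 841 and 758, higher in each number (0.58, 0.28 and 0.53). A second PMS1 probe set above the filter read 254, 220 and 179 against 144, 105 and 117, lower in each number (-0.82, -1.07 and -0.61). The 2 probe sets thus gave opposite directions in every number, and no direction can be given for PMS1. MLH3 was the further mismatch repair gene above the filter, at -0.26.

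**Figure D3:**
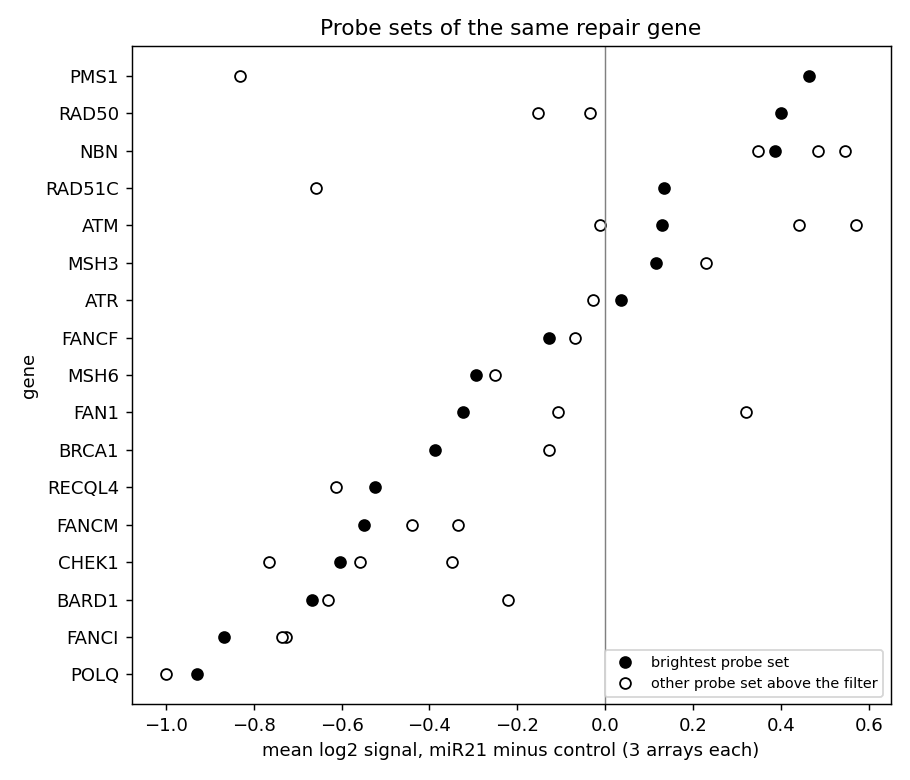
Mean log2 difference (miR21 minus control, 3 arrays each, x axis) of every probe set above the signal filter, for the 17 repair genes with more than 1. Filled points are the brightest probe set and open points the others, and they share a sign for 11 of the 17 genes, with PMS1 and RAD51C widest apart.

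Without both arrays of number 3, where the member median was 0.03, many of the members passed the test. The pair left out was the one with the smallest median difference, so these calls are a description and no separate support. In this fit with the replicate block, limma called 22 of the 35 members at an adjusted p under 0.05, of which 20 fell and 2 rose, against 16.9% of all genes lower and 15.9% higher. The calls were not particular to the members. Of the replication fork genes 33 of 34 fell and 0 rose, and of the mitotic genes 19 of 25 fell and 1 rose. Of the other recombination and Fanconi genes 14 of 43 fell and 3 rose. By role, 3 of 4 BRCA1 complex genes fell, 3 of 6 strand invasion genes, 6 of 9 Fanconi genes, 2 of 4 kinases and 3 of 4 in the POLQ and PARP1 group. EXO1, BLM and MSH6 fell as well, and the 2 that rose were NBN (0.56) and RAD50 (0.58). Among those that fell were EXO1 (-2.21, SE 0.25), BRIP1 (-1.74, SE 0.26), RAD54L (-1.65, SE 0.19) and BRCA1 (-0.57, SE 0.16). The fit rests on 2 pairs of arrays with 1 residual degree of freedom per gene, and it called 4004 of 12204 genes. With both arrays of number 2 left out instead, 0 members and 0 of all genes passed, with 5 members and 905 genes at an unadjusted p under 0.05. With number 1 left out, 0 members and 59 genes passed. The labels do not say in what the replicate numbers differ, and what sets number 3 apart was not tested.

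Other recombination and Fanconi genes had a median nearer to 0 than the members. Both lists were chosen with earlier results of these arrays known, so the contrast is a description. Of 47 further genes listed, 43 were above the filter, with a median of -0.16. Lower in all 3 numbers were 9, or 20.9%, against 20.9% of all genes, and higher were 6, or 14.0%, against 20.3%. With the block, 11 were lower and 2 higher at an unadjusted p under 0.05, against 10.3% and 9.82% of all genes, and 0 passed limma with or without the block after adjustment. SWI5, a recombination factor, was higher, with 551, 1367 and 1920 on the control arrays against 948, 2905 and 2499. MCM8, a helicase of recombination, was lower, with 1005, 251 and 290 against 420, 167 and 220.

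The other repair pathways had medians nearer to 0. Non-homologous end joining, which joins broken ends directly, had a median of 0.10 over 12 genes. Of these 1 (8.33%) was lower and 2 (16.7%) were higher in all 3 numbers, against 20.9% and 20.3% of all genes. The kinase gene PRKDC differed by -0.28 and TDP2, which frees ends blocked by topoisomerase, by 0.29. Nucleotide excision repair, which removes bulky lesions, had a median of 0.03 over 21 genes, with 4 lower and 4 higher in all 3 numbers (19.0% each). Its damage sensor DDB2 nevertheless read 539, 1391 and 1560 on the control arrays against 90.2, 233 and 1425 with miR21, a log2 difference of -1.76 (SE 0.96; with the block adjusted p = 0.139 in limma), and DDB1 differed by -0.48. Base excision repair, which replaces damaged bases, had a median of -0.06 over 19 genes, but 7 of these (36.8%) were lower in all 3 numbers, a share above the 34.3% of the members, and 2 (10.5%) were higher. Its lower members included the uracil glycosylase UNG (-0.99) and the replicative ligase LIG1 (-1.08), both of which also act at replication forks. No member of these 3 lists passed limma after adjustment on all 6 arrays, with or without the block. Without both arrays of number 3, with the block, 1 of 12 end joining genes fell and 0 rose at an adjusted p under 0.05. Of the nucleotide excision genes 3 of 21 fell and 5 rose. Of the base excision genes 7 of 19 fell and 3 rose, against 16.9% and 15.9% of all genes.

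Genes of the replication fork differed in the same direction as most of the repair genes, with a lower median. All 34 such genes above the filter had negative means, with a median of -0.91 and with -1.23, -1.28 and -0.15 in numbers 1, 2 and 3. Of them 24 were lower in all 3 numbers, or 70.6%. E2F1, a transcription factor of S phase genes, read 803, 991 and 1026 against 268, 386 and 625, and RFC2, a clamp loader subunit, differed by -0.73. The 25 mitotic genes had a median of -0.42, with -0.55, -0.59 and -0.03 in the 3 numbers. Of them 13 (52%) were lower in all 3 numbers, a share above the 34.3% of the members, and 1 was higher. CENPA, the centromeric histone, differed by -0.55 and the kinase gene AURKA by 0.59. So the split between numbers 1 and 2 on the one side and number 3 on the other was common to the repair, replication and mitotic lists. The part of S phase genes in the result on the repair genes was not tested.

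**Figure D4:**
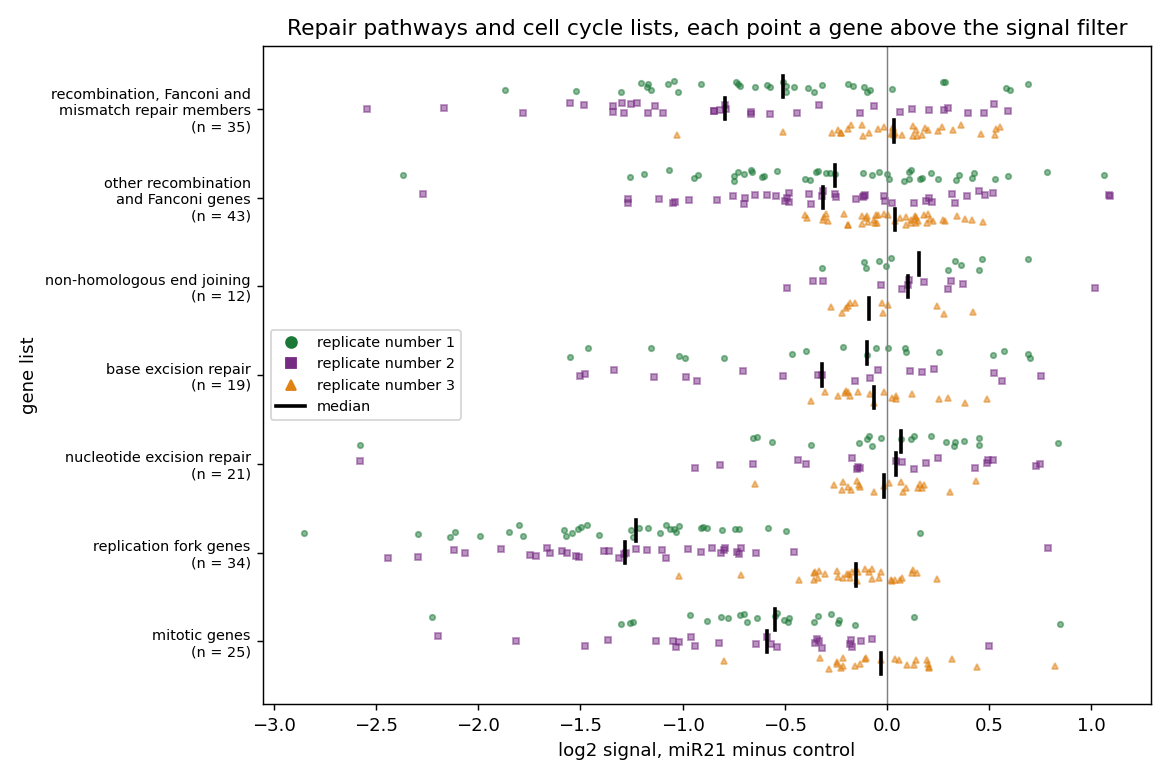
Log2 difference (miR21 minus control, x axis) of each gene above the signal filter in 7 lists, in a row of points for each replicate number, with a bar at the median. The bars of numbers 1 and 2 lie at -0.51 and -0.79 for the repair members and at -1.23 and -1.28 for the replication fork genes, and those of number 3 lie near 0.

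Because most members were lower in both numbers 1 and 2, their promoters were searched for letters bound by cell cycle factors. RefSeq entries on GRCh38.p14, 250 bases before to 50 bases after the start site, were matched by symbol for 30 of the 35 members above the filter. The E2F letters TTTCCCGC stood on either strand in 3 of 30, against 3.38% of the 9970 tested genes with an entry and 1.63% of all 35116 promoters. The E2F letters TTTGGCGC stood in 1 of 30 (1.27% and 0.652%). The shorter core TTCCCGC, which lies within the first of these and was chosen after the promoters had been read, stood in 15 of 30, against 13.0% and 6.55%. It was present in 8 of 11 members lower in all 3 numbers, in 7 of 17 of mixed sign and in 0 of 2 higher in all 3. Those 2 were RAD50 and PMS1, whose other probe sets above the filter were lower. NBN and WRN, also higher in all 3, had no matched entry. Because the core was picked from these promoters, the split is a description and no evidence of a relation. EXO1, FAN1 and CHEK2 were lower in all 3 numbers and lack the core. A gene with several entries counted once any of them held the letters, which for BRCA1 was 1 of 2. The replication fork genes held this core in 14 of 30, but TTTCCCGC in 8 of 30 and TTTGGCGC in 9 of 30, more often than the members. The CHR letters TTTGAA stood in 5 of 30 members (13.6% and 15.2%), the NF-Y letters CCAAT in 16 of 30 (43.1% and 34.6%) and the Sp1 letters GGGCGG in 24 of 30 (77.5% and 45.0%). Matches are letters only, and no binding was measured.

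The 100 bases before the start site are shown for 6 members lower in all 3 numbers that hold the core, for EXO1 and CHEK2, which were lower in all 3 numbers and lack it, and for RAD50 and PMS1, which lack it too. They were picked after their values and letters were seen, and where a gene had several entries one with the core is shown, so the display is no evidence of a relation. RAD50 and PMS1 were higher by their brightest probe sets, but other probe sets of both were lower. A second BRCA1 probe set was higher in number 2. Capitals mark TTCCCGC and CCAAT or their complements GCGGGAA and ATTGG, and sequences read 5′ to 3′ along the gene. The windows are chr1:46247588-46247687 plus strand for RAD54L, chr12:4538790-4538889 plus for RAD51AP1, chr9:35079943-35080042 minus for FANCG and chr9:95317710-95317809 minus for FANCC. Those of the others are chr1:226408094-226408193 minus for PARP1, chr17:43125365-43125464 minus for BRCA1, chr1:241848104-241848203 plus for EXO1, chr22:28741821-28741920 minus for CHEK2, chr2:189784350-189784449 plus for PMS1 and chr5:132556877-132556976 plus for RAD50.
RAD54L: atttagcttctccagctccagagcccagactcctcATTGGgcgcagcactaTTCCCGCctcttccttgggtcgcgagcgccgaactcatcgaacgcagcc
RAD51AP1: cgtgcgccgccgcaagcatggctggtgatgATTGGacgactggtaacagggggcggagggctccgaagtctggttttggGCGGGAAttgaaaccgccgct
FANCG: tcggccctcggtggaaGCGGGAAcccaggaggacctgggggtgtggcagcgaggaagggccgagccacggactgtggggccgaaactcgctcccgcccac
FANCC: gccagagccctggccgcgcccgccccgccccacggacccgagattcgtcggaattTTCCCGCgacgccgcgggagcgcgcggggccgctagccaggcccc
PARP1: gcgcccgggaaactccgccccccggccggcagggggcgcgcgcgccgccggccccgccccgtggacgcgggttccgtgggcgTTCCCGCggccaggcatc
BRCA1: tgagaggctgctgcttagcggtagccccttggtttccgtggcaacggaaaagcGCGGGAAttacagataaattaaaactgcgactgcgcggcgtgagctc
EXO1: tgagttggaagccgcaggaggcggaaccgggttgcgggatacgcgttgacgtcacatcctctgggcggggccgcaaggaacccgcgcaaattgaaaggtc
CHEK2: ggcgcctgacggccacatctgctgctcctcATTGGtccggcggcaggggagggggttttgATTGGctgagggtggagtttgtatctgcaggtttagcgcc
PMS1: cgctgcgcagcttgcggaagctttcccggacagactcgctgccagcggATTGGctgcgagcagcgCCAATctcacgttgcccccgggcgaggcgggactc
RAD50: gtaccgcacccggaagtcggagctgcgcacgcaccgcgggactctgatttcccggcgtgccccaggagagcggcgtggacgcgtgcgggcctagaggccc
The core began 49 bases before the start site in RAD54L, 21 in RAD51AP1, 84 in FANCG, 45 in FANCC, 18 in PARP1 and 47 in BRCA1. RAD54L and RAD51AP1 also held CCAAT on the opposite strand, 65 and 70 bases before the start. EXO1 held neither, and CHEK2 held CCAAT on the opposite strand at 70 and 40 bases. PMS1 held CCAAT at 52 and 35 bases and no core, and RAD50 held neither in this window.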

How the data were processed

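RNA of 6 SKOV3 samples was measured on Affymetrix U133 Plus 2.0 arrays, per the labels. The authors deposited linear MAS5 intensity values per probe set (54675), per the submitters' processing notes, whose version is not stated there. Every array has a mean of 500 once 2% is trimmed from either end, so a shift common to most genes would not show. Groups and replicate numbers come from the sample titles. Nothing says that replicates were separate cultures, so p-values reflect only how these samples vary, possibly for technical reasons.

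Single-gene probe sets numbered 41091, and 41037 of their Entrez identifiers were found in RefSeq (GRCh38.p14). Log2 signals (no pseudocount) of the brightest probe set per gene were fitted over all 12204 genes with limma 3.58.1 in R 4.3.3 (lmFit, then eBayes with trend, and Benjamini-Hochberg adjustment at 0.05). The fit had no block. Arrays of like number correlated in their deviations from the group means at 0.636 to 0.899, above the 0.1 required, and were taken as pairs, with the pairing itself from the titles (unlike numbers: -0.754 to 0.411). The steps were tested on simulated data. The members and lists were chosen with earlier results of these data known. Values on all arrays are given for members of 1 sign in all 3 numbers with a block p under 0.05, for the mismatch repair genes, BRCA1, PARP1 and ATM, and for others chosen after their values were seen. Of each further list the 2 genes of smallest block p are named, AURKA and CENPA among the mitotic genes for example. Alternatives were quantile normalization, median centring, an offset of 16, other filters and probe set rules, no trend, array weights, the block, and arrays left out.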

Additional observations from a re-analysis of the deposited data

How the results depend on the processing

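Under quantile normalization, median centring, an offset of 16, array weights, the averaged probe sets, no variance trend, an upper quartile filter and no filter, limma called 0 genes and 0 members, with 103 (median centring) to 1794 (array weights) genes at an unadjusted p under 0.05. The replicate block called 4 genes, 0 of them members, and changed no other call. The member median stayed between -0.52 (array weights) and -0.33 (median centring, which moved the median of all genes to 0.09). Members without overlap on the lower side numbered 3 (3.27% of all genes), against 0 with median centring (0.951%) and 1 with probe sets averaged (3.74%). Fewer arrays raise the share of all genes: with 1 left out they numbered 3 to 18, with 18 without miR21 replicate 3 (10.8% of all genes), 7 without control replicate 1 (8.55%) and 5 without control replicate 2 (4.71%). Without both arrays of number 1, 2 or 3, with the block, they numbered 8, 5 and 19 (13.2%, 6.86% and 15.8% of all genes). Called genes then numbered 59, 0 and 4004 and called members 0, 0 and 22. The member median with 1 array left out lay between -0.70 (without miR21 replicate 3) and -0.24 (without miR21 replicate 2). The count lower in all 3 numbers has no value with an array left out.

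Of 455 gene differences under the alternatives with all arrays, 5 changed sign: FANCE with array weights (0.000818), and, with probe sets averaged, RAD51C (-0.26), ATM (-0.18), ATR (-0.21) and MSH6 (0.45). The average includes probe sets below the filter. Array weights stopped before their tolerance was reached. With 1 array left out, ranges that cross 0 were FANCE -0.27 to 0.061, ATM -0.16 to 0.53, MSH3 -0.37 to 0.70, FANCF -0.42 to 0.094, ATR -0.068 to 0.14, XRCC3 -0.64 to 0.12, H2AX -0.66 to 0.074 and MRE11 -0.43 to 0.073. Without number 1, with the block, XRCC3 lay at 0.0049 and FANCE at 0.068; without number 2, MRE11 lay at 0.13 and MSH3 at -0.0240; without number 3, ATR lay at -0.018. Except where a setting uses fewer arrays or other probe sets, the cause was not tested. The number of arrays limits the precision.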

Other observations

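Genes of direct damage reversal and of translesion synthesis, the copying of damaged templates, had a median log2 difference of -0.19 over 11 genes. Of these 3 (27.3%) were lower and 0 higher in all 3 replicate numbers, against 20.9% and 20.3% of all genes. RAD18, the ubiquitin ligase that switches forks to translesion polymerases, read 459, 360 and 316 on the control arrays against 285, 205 and 180 with miR21, for numbers 1, 2 and 3. It differed by -0.69, -0.81 and -0.82, about as much in number 3 as in the others, without overlap of the groups. The mean difference of -0.77 (SE 0.35; with the block adjusted p = 0.147 in limma) did not pass. ALKBH2, which reverses alkylation, read 543, 553 and 602 against 269, 406 and 479, also without overlap. Lower signals without overlap were seen in 3.27% of all genes.

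Genes of 53BP1 and of ubiquitin signalling at breaks had a median of -0.10 over 12 genes. MDC1, the scaffold that binds marked chromatin at breaks, differed by -0.51 and the histone gene H2AX by -0.32, and neither passed limma.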
